A study of Homo sapiens with 80 samples.

Results

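The cereblon ubiquitin ligase, the enzymes that attach and remove NEDD8 on its cullin scaffold and the COP9 signalosome were followed in lenalidomide-treated and lenalidomide-resistant anaplastic large cell lymphoma cells. The set was 37 named genes, taken by gene symbol from the RNA-seq and digital gene expression tables and by a symbol joined to the Ensembl identifier from the PRO-seq table. All 37 were in the RNA-seq tables of 58735 genes, 36 were among the 17792 genes of the PRO-seq table and 36 among the 17463 of the digital gene expression table. CAND2 was the absent gene in both shorter tables, and it was never tested, since it had 49 counts over the 12 libraries of the ZFP91 RNA-seq table and 76 over the 12 libraries of the CSNK2B RNA-seq table.

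SU-DHL-1 and KI-JK are established ALK-positive anaplastic large cell lymphoma lines, a lymphoma of T-cell type. The regrown SU-DHL-1 cells were 3 independent pools that had become resistant in long culture with increasing lenalidomide and had then been kept without the drug for at least 2 months, and the parental cells were the untreated starting line. PRO-seq, which counts engaged RNA polymerase along genes, compared regrown with parental cells in 3 libraries each. Digital gene expression, a shallow 3' tag count of messenger RNA, compared 2.5 µM lenalidomide with DMSO for 18 h in regrown and in parental cells, again in 3 libraries each. RNA-seq was done on regrown and parental cells that all carried Cas9 and an inducible guide vector against ZFP91, given 1 µg/ml doxycycline for 96 h (the knockout) or none. A second RNA-seq experiment compared a CSNK2B overexpression vector with an empty vector in KI-JK and in parental SU-DHL-1 cells. The doxycycline itself and the knockout cannot be told apart in this design. The 42 libraries analysed fell into 14 groups of 3, and the other 38 samples of the series were not analysed here. The regrown replicates were separate pools, but no label says that parental, KI-JK or vector replicates were separate cultures, so p-values measure the spread between these samples, which may be technical.

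Lenalidomide binds cereblon (CRBN), the substrate receptor of a cullin-RING ligase in which DDB1 links CRBN to the scaffold CUL4A or CUL4B and RBX1 brings in the ubiquitin-loaded E2 enzyme. The drug makes this ligase ubiquitinate proteins that it otherwise leaves alone, ZFP91 among them, and loss of CRBN is a known route to resistance in myeloma. The scaffold works when NEDD8 is attached to it through the activating enzyme NAE1-UBA3, the conjugating enzymes UBE2M or UBE2F and a DCUN1D co-ligase, and it is switched off when the COP9 signalosome takes NEDD8 away and CAND1 exchanges the receptor.

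Total counts ran from 33467869 to 47199672 per PRO-seq library and from 15387114 to 23052717 in the ZFP91 RNA-seq. In the vector RNA-seq they ran from 23073232 to 28927808 for KI-JK and from 14444523 to 24115731 for SU-DHL-1. Digital gene expression libraries held 41571 to 395827 counts, the smallest being parental lenalidomide replicate 3, so small changes were not detectable there. Markers of the lymphoma summed to 3710 to 4980 CPM (TMM-normalised counts on a scale common to all libraries of a table) in the ZFP91 RNA-seq and 3824 to 5480 CPM in the vector RNA-seq, with all 7 in the table. The T-cell markers CD4 and CD3E had at most 6 counts in any RNA-seq library, so these sums came from the other 5. The 5 of them in the shorter tables summed to 2591 to 3866 CPM in PRO-seq and 4940 to 8617 CPM in digital gene expression. B-cell markers summed to 0 to 0.802 CPM and 0 to 12.6 CPM in the RNA-seq tables, and 3 of the 5 were at 0 in every ZFP91 library. Myeloid and epithelial or stromal markers stayed between 0.683 and 17.6 CPM in the ZFP91 libraries and between 1.39 and 139 CPM in the vector libraries. PAX5, a B-cell marker, had 208 to 302 counts in KI-JK libraries, against at most 3 in the SU-DHL-1 vector libraries. CSF1R, a myeloid marker, had 2996 to 3702 counts in KI-JK libraries, against 286 to 473 in the SU-DHL-1 vector libraries. In the ZFP91 table ZFP91 RNA had 101, 83.4 and 78.1 CPM in regrown knockout libraries against 96.8, 97.0 and 89.6 CPM without doxycycline, and 92.4, 85.2 and 85.4 CPM in parental knockout libraries against 109, 113 and 107 CPM without doxycycline. A Cas9 cut need not lower a transcript, so these counts do not check the label. CSNK2B had 82.3, 81.8 and 77.6 CPM with the vector in KI-JK against 18.5, 15.9 and 18.4 CPM with the empty vector, and 247, 252 and 238 CPM against 30.5, 28.9 and 29.3 CPM in SU-DHL-1. The 3 regrown no-doxycycline RNA-seq libraries stood apart in 1 respect: their counts leaned towards genes of long span, by 0.0623, 0.0294 and 0.0982 log2 units per doubling of gene span relative to the table's mean, against 0.0056, -0.0056 and -0.0504 in parental no-doxycycline libraries. The regrown knockout libraries, at -0.0377, -0.0347 and -0.018, and the parental knockout libraries, at 0.048, -0.078 and -0.0192, did not share this lean as groups, although parental knockout replicate 1 was at 0.048. Results that rest on the regrown no-doxycycline libraries are therefore given beside those of the knockout libraries, which do not use them.

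PRO-seq asked which of these genes were transcribed differently in regrown cells. Gene-level tests were edgeR's quasi-likelihood test over all genes, two-sided, with Benjamini-Hochberg adjustment, and a gene was called at an adjusted p below 0.05. Of 36 members tested, 5 rose (DCUN1D1, UBA3, SENP8, GPS1 and GLUL) and 4 fell (RNF7, NEDD8, UBE2G1 and COPS3), which is 25% of the members beside 30.2% of the 16456 genes tested (14% higher, 16.2% lower). The members were thus called no more often than other genes, and their median log2 change was 0.033 beside 0.022 over all genes. Of the cereblon ligase itself, CRBN, DDB1, CUL4A, CUL4B, RBX1 and DDA1, 0 of 6 were called in PRO-seq. In these bulk libraries a lower level in each cell and fewer cells that express a gene cannot be told apart.

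**Figure D1:**
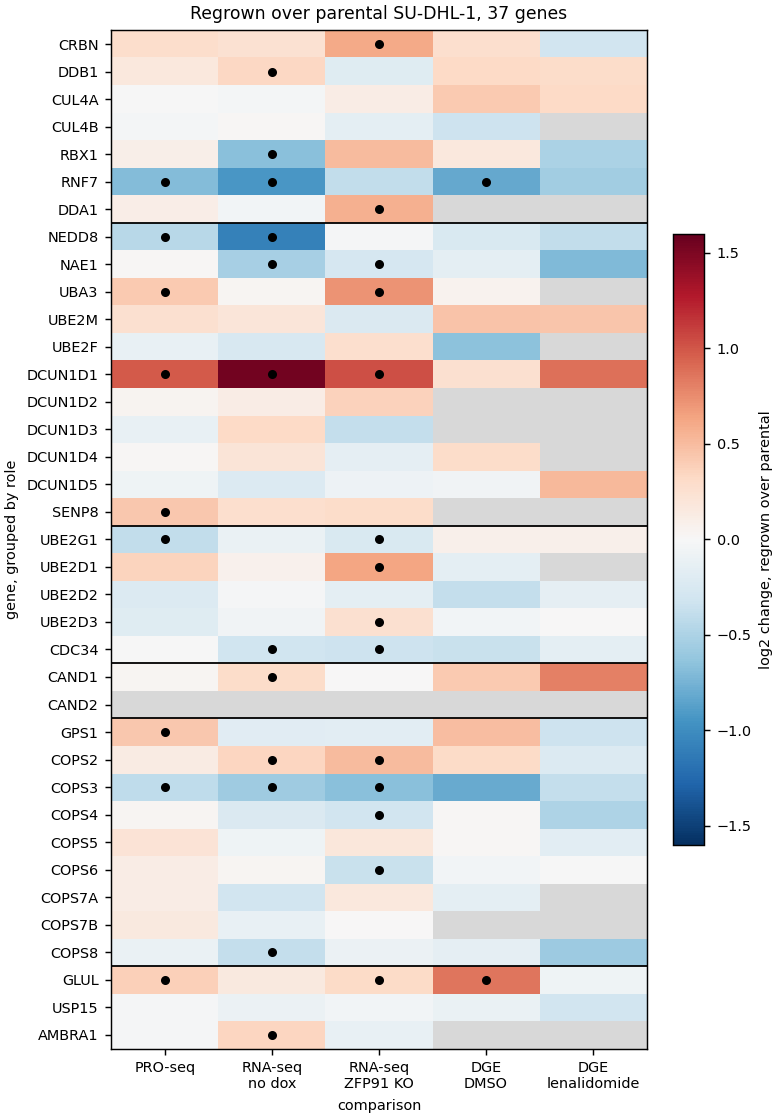
Log2 change of each of the 37 genes (vertical, grouped by role with lines between groups) in regrown over parental cells for 5 comparisons (horizontal); colour gives the change, black dots mark called genes and grey marks genes not tested. DCUN1D1 was red in all 5 columns and RNF7 and COPS3 blue in all 5, while most members were near white in PRO-seq.

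The largest transcriptional difference was that of DCUN1D1, a co-ligase that helps place NEDD8 on cullins (chr3:182942776-182980538, hg38, minus strand). It had 53.0, 50.8 and 53.5 CPM in regrown libraries against 25.7, 26.6 and 27.5 CPM in parental libraries. All regrown libraries lay above all parental ones, and its log2 change of 0.98 ± 0.10 (SE, n = 3 each, edgeR adjusted p = 5.38e-05) was called in each of the 6 fits that left out 1 library. UBA3, the catalytic subunit of the NEDD8-activating enzyme (chr3:69054730-69080327, minus strand), had 60.5, 62.7 and 64.2 CPM in regrown libraries against 45.2, 45.6 and 49.9 CPM in parental libraries. The groups did not overlap, and UBA3 rose by 0.41 ± 0.09 (edgeR adjusted p = 0.00614). GLUL, glutamine synthetase and a natural substrate of CRBN (chr1:182381704-182391790, minus strand), had 97.2, 101 and 111 CPM in regrown libraries against 80.6, 76.1 and 80.1 CPM in parental libraries, again without overlap, a rise of 0.38 ± 0.09 (edgeR adjusted p = 0.00866). SENP8, a protease that matures NEDD8 and removes it from proteins other than cullins, rose by 0.43 ± 0.13 and GPS1, a COP9 subunit, by 0.43 ± 0.14 (edgeR adjusted p = 0.033 and 0.0366), but these calls were weak. Each was kept in 2 of the 6 fits that left out 1 library, with adjusted p up to 0.144 for SENP8 and up to 0.142 for GPS1.

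RNF7, the RING subunit that pairs with CUL5 where RBX1 pairs with other cullins (chr3:141738319-141745702, plus strand), had 61.1, 54.8 and 51.4 CPM in regrown libraries against 84.3, 85.8 and 99.9 CPM in parental libraries. The groups were well apart and RNF7 fell by 0.69 on the log2 scale (SE 0.11, edgeR adjusted p = 0.000763). NEDD8, the modifier itself (chr14:24216857-24232367, minus strand), had 53.8, 57.0 and 54.4 CPM in regrown libraries against 73.9, 75.3 and 74.7 CPM in parental libraries. Its 3 values within each group were close, and its log2 change was -0.44 ± 0.08 (edgeR adjusted p = 0.00294). UBE2G1, an E2 that extends ubiquitin chains on drug-recruited CRBN substrates (chr17:4271980-4366675, minus strand), had 104, 104 and 111 CPM in regrown libraries against 151, 136 and 132 CPM in parental libraries, with no overlap and a log2 change of -0.39 ± 0.09 (edgeR adjusted p = 0.00869). COPS3, a COP9 subunit (chr17:17246616-17281246, minus strand), had 99.6, 72.5 and 72.4 CPM in regrown libraries against 115, 98.0 and 110 CPM in parental libraries. Here 1 regrown library lay above the lowest parental one, the log2 change was -0.40 ± 0.13 (edgeR adjusted p = 0.0418), and the call was kept in 1 of the 6 fits that left out 1 library (adjusted p up to 0.151). Without parental replicate 2 the calls over all genes fell to 3245, against 4973 with it. With the gene-span lean of each library as a covariate, an alternative chosen after seeing the data, 3 members stayed called: DCUN1D1 (0.95), RNF7 (-0.81) and NEDD8 (-0.46).

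Per kilobase of counted span, PRO-seq counts were highest for UBE2M, the E2 that passes NEDD8 to most cullins. It had 14.9 ± 0.573 CPM per kb in regrown and 12.4 ± 1.68 CPM per kb in parental cells (SD, n = 3 each). RNF7 and GLUL came next in parental cells. The spans of UBE2M, RNF7 and GLUL were short, at 3860, 7384 and 10087 bases, against 197604 for AMBRA1. COPS6, with a span of 3206 bases, had 4.69 CPM per kb in parental cells. Counts near the gene start and along the gene were not separated, so this order is not one of transcription alone. RNF7 had 7.55 ± 0.670 CPM per kb in regrown and 12.2 ± 1.17 in parental cells, so its parental PRO-seq level was close to that of UBE2M. CRBN sat in the middle of the set, at 2.54 ± 0.178 CPM per kb in regrown and 2.10 ± 0.171 in parental cells. DCUN1D1 was the lowest of the 36 in parental cells, at 0.704 ± 0.0237 CPM per kb, next to COPS4 at 0.724 ± 0.0801, and these neighbours in the order did not differ beyond their spread. In regrown cells DCUN1D1 stood at 1.39 ± 0.0381 CPM per kb, above COPS4 (0.743 ± 0.0164), AMBRA1 (0.801 ± 0.106) and CUL4B (0.818 ± 0.0631).

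The 200 bases before the RefSeq start (GRCh38.p14) are printed 5' to 3' on the gene's strand for CRBN and for DCUN1D1, RNF7, COPS3 and NEDD8, which were called the same way in PRO-seq and in no-doxycycline RNA, so that the promoters of the genes that went up and down can be set side by side. Capitals mark letters of 1 of 5 searched motifs on either strand, where overlapping matches are joined: the ETS-type CCGGAAG, the NRF1 motif, the YY1-type AAGATGGC, the NFY-type CCAAT and the CRE-type TGACG. They lie at chr3:3179692-3179891 minus for CRBN, chr3:182980539-182980738 minus for DCUN1D1, chr3:141738098-141738297 plus for RNF7, chr17:17281247-17281446 minus for COPS3 and chr14:24232368-24232567 minus for NEDD8.
CRBN: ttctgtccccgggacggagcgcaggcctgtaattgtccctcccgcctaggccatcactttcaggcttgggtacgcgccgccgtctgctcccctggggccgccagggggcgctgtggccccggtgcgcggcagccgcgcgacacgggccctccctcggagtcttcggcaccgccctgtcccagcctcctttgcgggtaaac
DCUN1D1: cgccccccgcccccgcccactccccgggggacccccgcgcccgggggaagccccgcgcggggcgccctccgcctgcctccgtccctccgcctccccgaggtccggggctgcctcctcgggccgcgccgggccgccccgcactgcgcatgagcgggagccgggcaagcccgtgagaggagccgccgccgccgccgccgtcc
RNF7: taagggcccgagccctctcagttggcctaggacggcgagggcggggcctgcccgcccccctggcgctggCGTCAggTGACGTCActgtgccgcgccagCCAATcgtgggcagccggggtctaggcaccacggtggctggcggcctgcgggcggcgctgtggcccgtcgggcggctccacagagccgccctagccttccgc
COPS3: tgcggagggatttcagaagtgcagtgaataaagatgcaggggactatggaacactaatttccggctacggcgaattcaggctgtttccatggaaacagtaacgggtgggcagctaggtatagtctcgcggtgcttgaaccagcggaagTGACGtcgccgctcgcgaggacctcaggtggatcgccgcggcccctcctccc
NEDD8: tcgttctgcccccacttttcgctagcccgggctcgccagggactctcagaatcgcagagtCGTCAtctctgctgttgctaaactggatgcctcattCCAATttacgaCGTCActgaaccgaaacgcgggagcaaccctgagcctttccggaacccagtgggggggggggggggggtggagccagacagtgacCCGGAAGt
The 3 printed promoters of genes that fell in regrown cells each held TGACG. Those of DCUN1D1 and of CRBN, which was not called in PRO-seq or no-doxycycline RNA, held none of the 5 motifs in this window. Among promoters not printed, TGACG was also held by COPS2 and SENP8, which were called higher in regrown cells, and by COPS8, which was called lower. NAE1, called lower, did not hold it, so TGACG did not separate members that fell from members that rose. Among the 35 members with a promoter entry 10 held TGACG, beside 18.43% of 35116 RefSeq promoters, 9 held CCAAT beside 28.03%, 6 held CCGGAAG beside 7.709%, 1 (CUL4B) held AAGATGGC beside 1.096% and 0 held the NRF1 motif beside 0.9768%. These are matches of letters, and no factor's binding was measured at them here.

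RNA-seq asked whether steady-state RNA differed in the same direction. Without doxycycline 5 of 36 members rose and 7 fell in regrown cells, 33.3% beside 43.7% of 13379 genes (22.6% higher, 21.1% lower), and the median member changed by -0.040 on the log2 scale beside -0.0025 over all genes. In the knockout cells 8 rose and 6 fell, 38.9% beside 38.4% of 13444 genes (18.6% higher, 19.8% lower), with a member median of -0.031. Called shares of the members were thus near or below those of all genes in both. The members called in the same direction in 2 or more of the 5 regrown against parental comparisons were DCUN1D1, UBA3, COPS2 and GLUL, which rose, and RNF7, NEDD8, NAE1, UBE2G1, CDC34 and COPS3, which fell. A further 13 members were called once, 14 never, and 0 were called in both directions. This tally was not made over all genes, of which 30.2% were called in PRO-seq and 43.7% and 38.4% in the RNA comparisons. Repeated calls are therefore not a result about the members as a set.

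In the RNA libraries DCUN1D1 had 80.5, 86.2 and 102 CPM in regrown no-doxycycline cells against 32.0, 33.8 and 26.2 CPM in parental ones, and 73.0, 69.8 and 73.1 CPM in regrown knockout cells against 40.4, 29.2 and 34.3 CPM in parental knockout cells. Each regrown library lay above each parental one. The log2 changes were 1.55 ± 0.12 without doxycycline and 1.03 ± 0.11 in the knockout (edgeR adjusted p = 2.67e-07 and 0.000119), and the first was 1.18 and still called with the gene-span covariate.

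**Figure D2:**
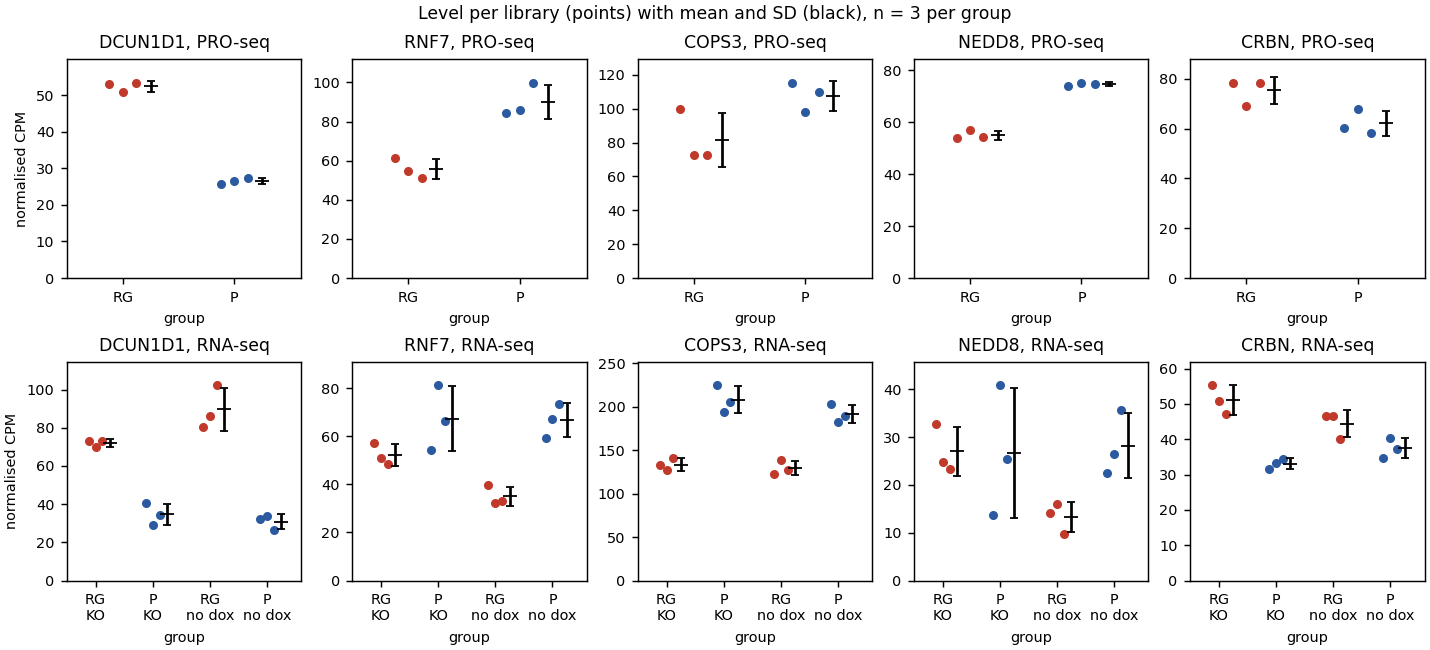
Normalised CPM (vertical, linear from 0) of DCUN1D1, RNF7, COPS3, NEDD8 and CRBN in each library, with regrown cells (RG, red) left of parental cells (P, blue); the upper row is PRO-seq and the lower row RNA-seq with ZFP91 knockout (KO) or without doxycycline (no dox), and black bars give mean and SD of 3 libraries. Regrown DCUN1D1 points lay above and RNF7 PRO-seq points below the parental ones, and NEDD8 RNA overlapped between the knockout groups.

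RNF7 RNA had 39.7, 32.4 and 33.0 CPM in regrown no-doxycycline cells against 59.4, 67.2 and 73.3 CPM in parental ones, without overlap, a log2 change of -0.93 ± 0.12 (edgeR adjusted p = 1.93e-05) that was -0.76 and still called with the gene-span covariate. In the knockout cells its 57.1, 50.8 and 48.5 CPM in regrown libraries overlapped the 54.4, 81.2 and 66.2 CPM of parental libraries, and its log2 change of -0.40 was not called (edgeR adjusted p = 0.0533), but was called with the gene-span covariate (-0.44, edgeR adjusted p = 2.58e-06). COPS3 had 122, 138 and 127 CPM in regrown no-doxycycline cells against 203, 182 and 190 CPM in parental ones, and 132, 127 and 141 CPM in regrown knockout cells against 225, 194 and 205 CPM in parental knockout cells. The groups were apart both times, with log2 changes of -0.57 ± 0.09 without doxycycline and -0.66 ± 0.08 in the knockout (edgeR adjusted p = 0.00013 and 0.000264). NEDD8 had 14.2, 15.9 and 9.80 CPM in regrown no-doxycycline cells against 22.5, 26.5 and 35.7 CPM in parental ones, and it fell by 1.09 on the log2 scale (SE 0.20, edgeR adjusted p = 0.000449). In the knockout NEDD8 had 32.8, 24.9 and 23.3 CPM in regrown libraries and 13.6, 40.9 and 25.5 CPM in parental ones, which overlapped fully, and it was not called. The difference between the comparisons was not called either, and with the gene-span covariate NEDD8 was not called without doxycycline. NEDD8 also overlaps a read-through gene, and whether counting used strand is not given in the sources used here. The same holds for how reads shared with processed pseudogenes, which GLUL has, were assigned.

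NAE1, the regulatory subunit of the NEDD8-activating enzyme (chr16:66802878-66830923, minus strand), had 126, 151 and 144 CPM in regrown no-doxycycline cells against 189, 205 and 212 CPM in parental ones, and 182, 179 and 171 CPM in regrown knockout cells against 202, 216 and 211 CPM in parental knockout cells. Its groups did not overlap either time, and it fell by 0.53 (SE 0.09) and by 0.27 (SE 0.07) on the log2 scale (edgeR adjusted p = 0.000439 and 0.0188), while its partner UBA3 went the other way in the knockout. UBA3 had 55.5, 57.9 and 51.3 CPM in regrown knockout cells against 28.3, 34.7 and 35.1 CPM in parental knockout cells, a log2 change of 0.72 ± 0.11 (edgeR adjusted p = 0.000792). Without doxycycline it had 30.3, 34.3 and 31.8 CPM in regrown cells and 28.7, 32.0 and 33.2 CPM in parental cells, which overlapped. NAE1 RNA was therefore lower and UBA3 RNA higher in the same regrown knockout libraries, although the proteins act as 1 enzyme. COPS2, a core COP9 subunit (chr15:49127350-49155604, minus strand), had 157, 179 and 187 CPM in regrown no-doxycycline cells against 138, 138 and 136 CPM in parental ones, and 203, 186 and 198 CPM in regrown knockout cells against 150, 122 and 133 CPM in parental knockout cells. It rose both times without overlap, by 0.34 ± 0.09 and 0.51 ± 0.09 on the log2 scale (edgeR adjusted p = 0.00709 and 0.00188), opposite to COPS3. With the gene-span covariate COPS2 (0.28, edgeR adjusted p = 0.185) and NAE1 (-0.41, edgeR adjusted p = 0.054) were not called without doxycycline. Their neighbours there had medians of 0.38 with 11 of 24 called higher for COPS2, whose change less that median was -0.037, and of -0.46 with 15 of 24 called lower for NAE1.

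GLUL had 250, 225 and 244 CPM in regrown knockout cells against 192, 187 and 191 CPM in parental knockout cells, and 220, 267 and 219 CPM in regrown no-doxycycline cells against 211, 212 and 207 CPM in parental ones. It lay higher in every regrown library, but the rise was called in the knockout (0.31 ± 0.07, edgeR adjusted p = 0.00955) and not without doxycycline, and the difference between them was not called. The knockout call was lost without regrown knockout replicate 1 or replicate 3 (adjusted p up to 0.054). UBE2G1 had 88.2, 91.9 and 95.3 CPM in regrown knockout cells against 114, 98.2 and 110 CPM in parental knockout cells, and fell by 0.25 on the log2 scale (SE 0.08, edgeR adjusted p = 0.0371). CDC34, the E2 best known with CUL1 ligases (chr19:531760-542087, plus strand), had 52.7, 53.2 and 53.6 CPM in regrown knockout cells against 56.1, 76.0 and 65.0 CPM in parental knockout cells, and 58.5, 43.3 and 46.7 CPM in regrown no-doxycycline cells against 57.3, 61.6 and 65.6 CPM in parental ones. It fell by 0.33 (SE 0.11) and by 0.32 (SE 0.12) on the log2 scale (edgeR adjusted p = 0.0432 and 0.0425), with overlap between groups in the no-doxycycline cells. These were borderline calls: leaving out 1 library in turn, CDC34 was called in 1 of 6 fits each time, UBE2G1 in 2 of 6 and NAE1 in the knockout in 2 of 6, with adjusted p up to 0.152 for CDC34, 0.139 for UBE2G1 and 0.0937 for NAE1. With replicate number as a block NAE1, UBE2G1, CDC34 and UBE2D3 were not called in the knockout cells, where 10 members then were.

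Of the members called in 1 RNA comparison, DDB1 rose by 0.33 ± 0.09 without doxycycline, CAND1 by 0.29 ± 0.09 and AMBRA1 by 0.35 ± 0.10, while COPS8 fell by 0.39 (SE 0.10) and RBX1 by 0.66 (SE 0.20). With the gene-span covariate 0 of these 5 were called, and RBX1 turned to 0.20. AMBRA1 is a receptor of the same ligase family that targets D-type cyclins. The edgeR adjusted p were 0.0065, 0.0133, 0.0111, 0.00513 and 0.016. In the knockout DDA1, a small subunit bound to DDB1, rose by 0.57 ± 0.17 and the E2 enzymes UBE2D1 and UBE2D3, which start ubiquitin chains, by 0.64 ± 0.13 and 0.26 ± 0.09, while the COP9 subunits COPS4 and COPS6 fell by 0.30 (SE 0.08) and 0.35 (SE 0.07). The edgeR adjusted p were 0.03, 0.00457, 0.0394, 0.0157 and 0.0049. By that choice none of these 10 was called in both RNA comparisons. In the no-doxycycline comparison the calls of CAND1, AMBRA1 and RBX1 were lost without parental replicate 3 (adjusted p up to 0.0797), that of AMBRA1 also without parental replicate 2 and that of RBX1 also without regrown replicate 1. In the knockout comparison, leaving out parental replicate 3 or regrown replicate 1, 2 or 3 left 8, 8, 8 and 7 members called, and DDA1 and UBE2D3 lost their calls each time, with adjusted p up to 0.106 and 0.163; COPS4 lost its call in 3 of these 4 (up to 0.0816). With the gene-span covariate 4 members were called without doxycycline and 23 in the knockout. The share of all genes called with this covariate in the knockout is not set beside the 23, so they are not a result about the members.

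Changes in PRO-seq and in RNA, which share no libraries, were set side by side. Between PRO-seq and no-doxycycline RNA 25 of 36 members had the same sign, with a Pearson coefficient of 0.714 across the members beside 0.671 across all genes, and between PRO-seq and knockout RNA 26 of 36 had the same sign, with a coefficient of 0.641 beside 0.706 across all genes. These are descriptions across genes, which are not independent replicates, and the points share the same lines. The 4 members whose promoters are printed above were those called the same way in PRO-seq and in no-doxycycline RNA.

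Several members moved together with the genes around them. For the 24 tested genes nearest to RNF7, whose starts lie between 139.6 and 144.0 Mb on chromosome 3, the median PRO-seq log2 change was -0.89 and 20 of 24 were called lower; RNF7 at -0.69 was less changed than that median. Around DCUN1D1, between 181.7 and 184.3 Mb on the same chromosome, the median was 0.85 and 16 of 24 were called higher, and DCUN1D1 was at 0.98. The nearest tested genes of RNF7 and DCUN1D1 had medians of -0.76 and 0.91 in no-doxycycline RNA and of -0.73 and 0.86 in knockout RNA. In digital gene expression under DMSO, where the nearest tested genes reach further out, the medians were -0.89 and 1.07, and DCUN1D1 itself, at 0.26, was not called. The neighbours of UBA3 had a median PRO-seq change of 0.35 with 11 of 24 called higher, those of COPS3, NEDD8 and UBE2G1 had -0.30 each, and those of CRBN had 0.39 with 10 of 24 called higher and 0 lower. In PRO-seq GLUL and SENP8 stood apart from their surroundings, whose medians were -0.03 and -0.01. In no-doxycycline RNA their uncalled changes of 0.16 and 0.27 lay below neighbour medians of 0.24 and 0.50. In knockout RNA GLUL was at 0.31 beside -0.07, and SENP8, not called, at 0.30 beside 0.48. RBX1 in no-doxycycline RNA was at -0.66, or at 0.20 with the gene-span covariate, where its neighbours had a median of 0.25. Across the 36 members the PRO-seq change and the neighbour median had a Pearson coefficient of 0.841 and a Spearman coefficient of 0.66, a description in which members that lie close together share neighbours. DNA copy number was not measured in the files used here, and its part in these shifts was not tested.

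**Figure D3:**
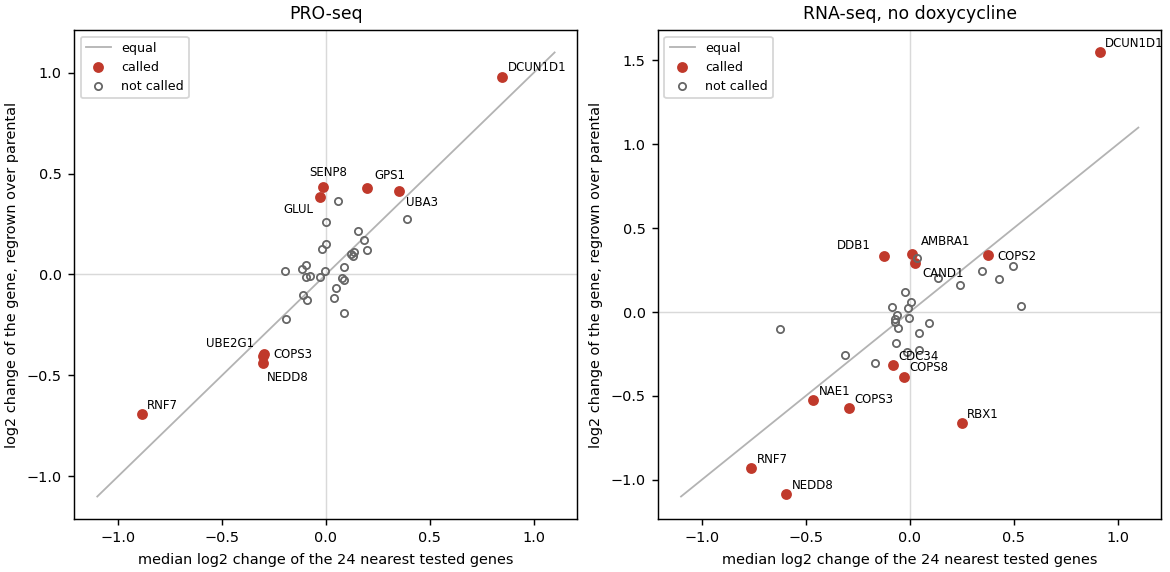
Log2 change of each member in regrown over parental cells (vertical) against the median log2 change of its 24 nearest tested genes (horizontal), for PRO-seq (left) and no-doxycycline RNA-seq (right); red points are called members, open points are not called and the grey line marks equal values. RNF7 (-0.89 on the horizontal axis) and DCUN1D1 (0.85) lie at the ends of the PRO-seq plot, and RBX1 lies below the line in RNA-seq.

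CRBN itself, the receptor that lenalidomide binds (chr3:3150011-3179691, minus strand), was called lower in regrown cells in 0 of the 5 comparisons with parental cells. In PRO-seq it had 78.3, 69.3 and 78.5 CPM in regrown libraries against 60.3, 68.0 and 58.4 CPM in parental libraries. Every regrown value was above every parental value, but the lowest regrown and the highest parental library were close, and the log2 change of 0.28 ± 0.10 was not called (edgeR adjusted p = 0.0561), though it was with library-size scaling alone (0.0409). CRBN RNA had 55.3, 50.9 and 47.1 CPM in regrown knockout cells against 31.4, 33.3 and 34.5 CPM in parental knockout cells, a called rise of 0.60 ± 0.09 (edgeR adjusted p = 0.000962). Without doxycycline it had 46.6, 46.6 and 40.0 CPM in regrown cells against 34.7, 40.4 and 37.1 CPM in parental cells, where 1 regrown library lay just below the highest parental one and the change of 0.25 ± 0.11 was not called (edgeR adjusted p = 0.0809); it was called without regrown no-doxycycline replicate 3 (0.0432). Its neighbours had medians of 0.43 in the knockout and 0.35 without doxycycline, with 18 and 14 of 24 called higher and 0 lower.

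In digital gene expression under DMSO, GLUL rose and RNF7 fell among 30 members tested, 6.67% beside 6.21% of 5941 genes (2.91% higher, 3.3% lower), and the median member changed by -0.012 beside 0.010 over all genes. GLUL had 156, 129 and 135 CPM in regrown libraries against 71.2, 76.2 and 83.6 CPM in parental libraries, with no overlap and a log2 change of 0.85 ± 0.25 (edgeR adjusted p = 0.034). RNF7 had 195, 135 and 121 CPM in regrown libraries against 262, 229 and 302 CPM in parental libraries, also without overlap, and a log2 change of -0.81 ± 0.22 (edgeR adjusted p = 0.0205). Both calls were lost in DESeq2 and in a fit of all 4 groups. They were also lost without parental DMSO replicate 1, parental DMSO replicate 3 or regrown DMSO replicate 2, when 0 members were called. GLUL was also lost without parental replicate 2 or regrown replicate 1, and adjusted p ran up to 0.158 for GLUL and 0.147 for RNF7. Over all genes the 369 calls became 226 without parental DMSO replicate 1 and 222 without replicate 2. COPS3 had 88.9, 63.4 and 57.0 CPM in regrown libraries against 122, 102 and 143 CPM in parental libraries, not called at this depth (edgeR adjusted p = 0.0767) but called with replicate number as a block. CRBN had 63.9, 42.3 and 35.6 CPM in regrown libraries and 31.3, 36.7 and 50.8 CPM in parental libraries, which overlapped (0.26 ± 0.37, edgeR adjusted p = 0.78).

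Lenalidomide for 18 h changed the counts of none of these genes detectably. In regrown cells 0 of 30 members tested were called beside 0.23% of 5661 genes by edgeR, and 0 had an unadjusted p below 0.05, beside 283 of all genes. In parental cells 0 of 29 were called beside 0.845% of 5796 genes (0.673% higher, 0.173% lower). At an unadjusted edgeR p below 0.05 were 503 of all genes and 1 member. That gene was GLUL, with 142, 125 and 66.7 CPM under lenalidomide against 71.2, 76.2 and 83.6 CPM under DMSO in parental cells, a log2 change of 0.73 ± 0.28 (edgeR adjusted p = 0.388) in which the shallowest library, replicate 3, stood below all DMSO libraries. CRBN had 24.7, 45.5 and 42.6 CPM under lenalidomide against 63.9, 42.3 and 35.6 CPM under DMSO in regrown cells (-0.29 ± 0.47, edgeR adjusted p = 0.997), and 51.3, 56.1 and 0.0 CPM against 31.3, 36.7 and 50.8 CPM in parental cells (0.32 ± 0.43, edgeR adjusted p = 0.922), the 0.0 being that of the shallowest library. Its groups overlapped in both regrown and parental cells. Under lenalidomide, regrown and parental cells differed in 0 of 24 members beside 2.78% of 4648 genes (1.2% higher, 1.57% lower). There 1 member had an unadjusted edgeR p below 0.05, beside 640 of all genes, and CRBN changed by -0.30 ± 0.55 (edgeR adjusted p = 0.878). The difference between the responses of regrown and parental cells was called for 0 of 33 members and 0 of 6838 genes by edgeR, with 1 and 285 at an unadjusted p below 0.05, and was -0.58 ± 0.63 for CRBN. Counts over all genes moved with single libraries here. In parental cells, the 49 calls became 29, 25, 30 and 105 without DMSO replicate 1, DMSO replicate 2, lenalidomide replicate 1 and lenalidomide replicate 3, and in regrown cells the 13 became 7 without DMSO replicate 3 or lenalidomide replicate 3. Between regrown and parental cells under lenalidomide the 129 became 23, 71 and 44 without parental replicate 1, parental replicate 2 and regrown replicate 3.

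ZFP91 knockout in regrown cells was compared with the regrown no-doxycycline libraries, which are also the regrown side of the no-doxycycline comparison above, so the results share those libraries. Here 11 of 36 members rose and 7 fell, 50% beside 31.9% of 13107 genes (16.3% higher, 15.7% lower), with a member median of 0.15 beside 0.0034 over all genes. RBX1, the RING subunit (chr22:40951386-40973309, plus strand), had 66.3, 58.7 and 61.4 CPM in knockout libraries against 25.8, 41.3 and 19.7 CPM without doxycycline, with no overlap and a log2 change of 1.09 ± 0.19 (edgeR adjusted p = 0.00145). NEDD8 had 32.8, 24.9 and 23.3 CPM against 14.2, 15.9 and 9.80 CPM, also apart, and rose by 1.01 ± 0.18 (edgeR adjusted p = 0.00152). UBA3 had 55.5, 57.9 and 51.3 CPM in knockout libraries against 30.3, 34.3 and 31.8 CPM without doxycycline, a rise of 0.77 ± 0.09 (edgeR adjusted p = 0.000324). RNF7, UBE2D1, DCUN1D5, NAE1, DDA1 and the COP9 subunits COPS5, COPS7A and COPS8 rose by 0.33 to 0.59, and DCUN1D3, AMBRA1, CUL4B, DDB1, DCUN1D1, COPS6 and CAND1 fell, by up to 0.65 for DCUN1D3. DCUN1D1 had 73.0, 69.8 and 73.1 CPM in knockout libraries against 80.5, 86.2 and 102 CPM without doxycycline, a log2 change of -0.32 ± 0.10 (edgeR adjusted p = 0.0215). CRBN had 55.3, 50.9 and 47.1 CPM against 46.6, 46.6 and 40.0 CPM, all knockout values being above the others (0.20 ± 0.10, edgeR adjusted p = 0.148), and it was not called.

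Over all genes the regrown knockout change had a Pearson coefficient of -0.293 with log2 gene span, and over the members of -0.239. The gene-span lean described above is a slope on gene span in these same libraries. The coefficient over all genes therefore restates the lean and is no separate evidence. With each library's lean as a covariate 0 members and 0 genes were called by edgeR, where 18 and 4186 had been. The log2 changes of RBX1 (-0.16) and NEDD8 (0.0062) were then near 0 or turned, while those of UBA3 (0.58 ± 0.21), DDA1 (0.67 ± 0.25), RNF7 (0.50 ± 0.25) and COPS7A (0.54 ± 0.35) stayed about as large with wider errors. The lean did not overlap between the knockout and no-doxycycline libraries of regrown cells, so the covariate and the knockout cannot be told apart well, and the lost calls do not show that the lean carries these changes. Whether the lean came from library preparation or from the cells cannot be told apart here. Without regrown knockout replicate 1 there were 11 members and 2410 genes called, and without replicate 2 there were 2464 genes; 11 of the 18 members kept their call in every such fit, and those that lost it were COPS5, CAND1, COPS6, COPS7A, DCUN1D1, COPS8 and NAE1, with adjusted p up to 0.162. With the pool as a block the same 18 members were called.

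**Figure D4:**
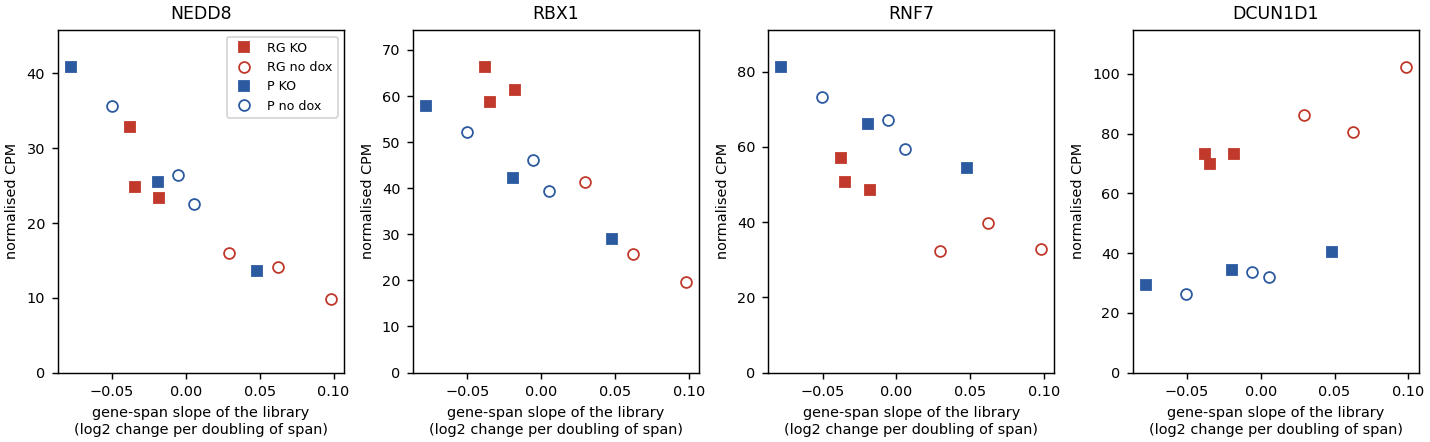
Normalised CPM (vertical, linear from 0) of NEDD8, RBX1, RNF7 and DCUN1D1 in each of the 12 ZFP91 RNA-seq libraries against the library's gene-span slope (horizontal, log2 change per doubling of gene span); squares are knockout and open circles no-doxycycline libraries, red regrown (RG) and blue parental (P). Regrown no-doxycycline circles lie to the right, between 0.0294 and 0.0982, with the lowest RBX1 and NEDD8 values among them and 1 parental knockout square also low at 0.048.

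In parental cells the knockout changed 0 of 36 members by edgeR beside 0.427% of 13354 genes (0.0599% higher, 0.367% lower), with an adjusted p of at least 0.541 for every member. At an unadjusted edgeR p below 0.05 were 4 of the 36 members (UBE2D2, UBE2M and DCUN1D5 higher, CUL4B lower), beside 1117 of the 13354 genes. RBX1 had 28.9, 57.8 and 42.1 CPM in parental knockout libraries against 39.3, 46.1 and 52.1 CPM without doxycycline, which overlapped. CRBN had 31.4, 33.3 and 34.5 CPM against 34.7, 40.4 and 37.1 CPM, every knockout value being below every other value, but the change of -0.19 ± 0.10 was not called (edgeR adjusted p = 0.66). The calls over all genes, 57, became 11, 0, 16, 110 and 10 without parental no-doxycycline replicate 1, 2 or 3, or knockout replicate 1 or 3, and 6 members were called with the gene-span covariate. The difference between the regrown and parental responses was called for RBX1 (1.19 ± 0.33), UBA3 (0.71 ± 0.15), UBE2D1 (0.60 ± 0.16), DDB1 (-0.51 ± 0.14) and COPS6 (-0.36 ± 0.10), 13.9% of 36 members beside 9.81% of 14267 genes (4.47% higher, 5.33% lower), with edgeR adjusted p between 0.0238 and 0.0458. For CRBN the difference was 0.38 ± 0.14 (edgeR adjusted p = 0.0871). Single libraries decided these counts: 0 members and 0 genes were called without parental no-doxycycline replicate 2 or 3, parental knockout replicate 3, regrown no-doxycycline replicate 1 or 3, or regrown knockout replicate 1 or 2, and the other removals moved them too. There was 1 member called without parental knockout replicate 1 (587 genes) or regrown knockout replicate 3 (542 genes), 9 members without regrown no-doxycycline replicate 2 (2686 genes) and 16 without parental knockout replicate 2 (3355 genes). With replicate number as a block 10 members and 2257 genes were called, where 5 and 1399 had been without it.

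The CSNK2B vector, which raises the regulatory subunit of casein kinase 2, was compared with an empty vector in each line. In KI-JK 18 of 36 members rose and 3 fell, 58.3% beside 35.7% of 14104 genes (18.4% higher, 17.3% lower), and the median member changed by 0.13 beside -0.0089 over all genes. The rises were small, at most 0.57 ± 0.14 for UBE2F, the E2 that passes NEDD8 to CUL5, which had 9.49, 8.37 and 9.88 CPM with the vector against 6.75, 4.97 and 7.00 CPM without it (edgeR adjusted p = 0.00225). GLUL had 73.9, 70.9 and 72.7 CPM with the vector against 54.5, 50.8 and 54.9 CPM with the empty vector, well apart, and rose by 0.44 ± 0.05 (edgeR adjusted p = 5.87e-07). COPS3 had 75.6, 70.2 and 74.3 CPM with the vector against 62.7, 55.9 and 60.1 CPM with the empty vector, and rose by 0.30 ± 0.05 (edgeR adjusted p = 0.000109). USP15, a deubiquitinase reported to oppose the CRBN ligase, rose by 0.34 ± 0.05 and UBE2D1 by 0.31 ± 0.07 (edgeR adjusted p = 5.69e-06 and 0.00117). The other rises, from 0.11 to 0.21, were those of COPS2, COPS5, COPS8, AMBRA1, DCUN1D1, DCUN1D3, DCUN1D5, DDB1, UBE2M, CUL4A, UBE2G1, CAND1 and UBE2D3. UBA3, CUL4B and COPS7A fell by 0.24, 0.16 and 0.15. CRBN had 18.4, 20.9 and 22.1 CPM with the vector against 19.5, 18.6 and 21.9 CPM with the empty vector, which overlapped (0.04 ± 0.08, edgeR adjusted p = 0.752). Of these, COPS7A was called in 1, UBE2G1 and COPS5 in 2, DCUN1D3 and AMBRA1 in 3, UBE2D3 in 4 and DCUN1D1 and COPS8 in 5 of the 6 fits that left out 1 library, with adjusted p up to 0.196.

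In SU-DHL-1 the vector changed 1 of 36 members, 2.78% beside 6.74% of 13727 genes (3.39% higher, 3.34% lower), with a median of -0.012. CUL4B, a scaffold of the ligase, had 99.2, 106 and 102 CPM with the vector against 121, 120 and 118 CPM with the empty vector, with no overlap and a log2 change of -0.21 ± 0.04 (edgeR adjusted p = 0.00123). CRBN had 43.3, 42.5 and 40.3 CPM against 40.6, 36.2 and 37.6 CPM and was not called (0.14 ± 0.06, edgeR adjusted p = 0.138). Without empty vector replicate 1 the calls over all genes fell to 582, against 925 with it, and 2 or 3 members were called without empty vector replicate 3 or CSNK2B vector replicate 1; with replicate number as a block 2 were, RBX1 being the other.

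**Figure D5:**
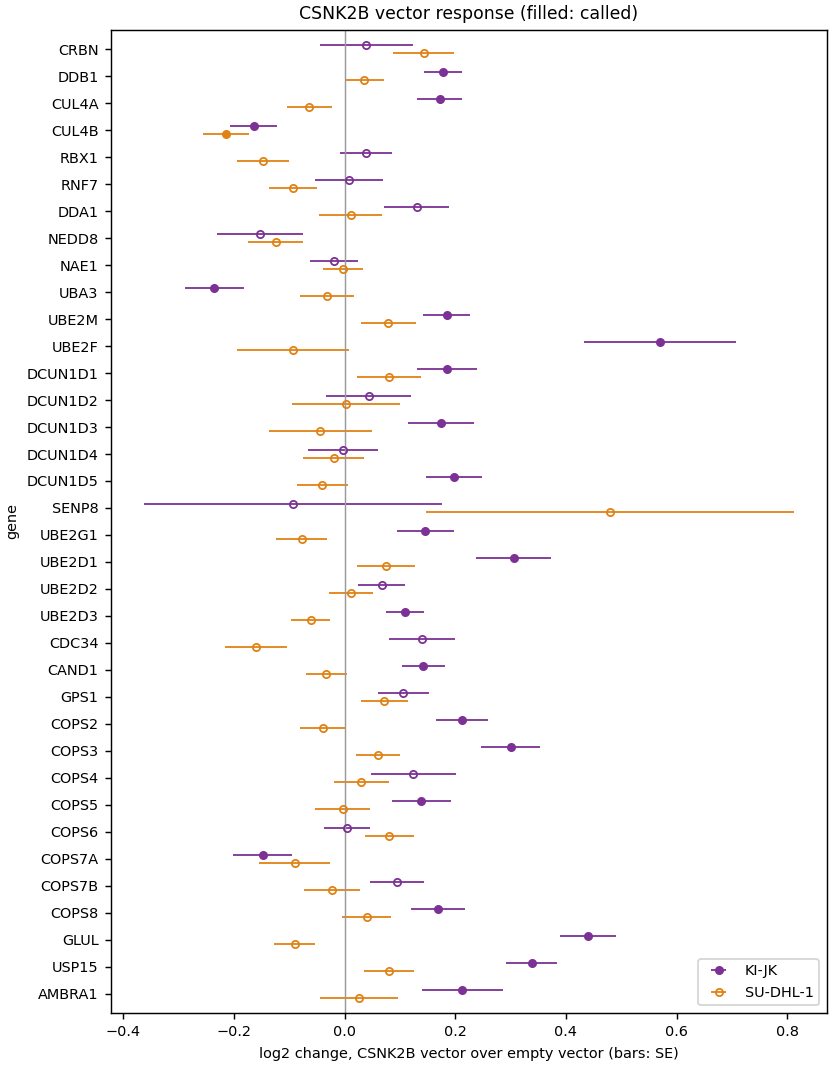
Log2 change with the CSNK2B vector over the empty vector (horizontal, bars are SE, n = 3 libraries each) for each of the 36 tested members (vertical), KI-JK purple above SU-DHL-1 orange; filled points are called. Most KI-JK points lie right of 0, up to 0.57 for UBE2F, and CUL4B is the filled SU-DHL-1 point.

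The response itself differed between the lines for 14 of 36 members, all 14 more positive in KI-JK, 38.9% beside 19.2% of 15564 genes (10.7% higher, 8.44% lower), with a median of 0.14 beside 0.0011. The differences were 0.68 ± 0.17 for UBE2F and 0.54 ± 0.06 for GLUL (edgeR adjusted p = 0.00522 and 1.12e-07), and 0.15 to 0.31 for the other 12. GLUL had 236, 235 and 229 CPM with the vector against 250, 259 and 241 CPM with the empty vector in SU-DHL-1, so it rose in KI-JK and was not called in SU-DHL-1. For CRBN the difference was -0.09 ± 0.10 (edgeR adjusted p = 0.597). Across the members the responses of KI-JK and SU-DHL-1 had a Pearson coefficient of 0.001 and 21 of 36 had the same sign, a description in which no library is shared, and over all genes the coefficient was 0.084. The count of members was 9, 8 and 8 without SU-DHL-1 empty vector replicate 1, SU-DHL-1 CSNK2B vector replicate 3 and KI-JK empty vector replicate 2, and 7 of the 14 members lost their call in some of the 12 fits that left out 1 library. UBE2D1, DDB1, RBX1, CAND1, UBE2G1, UBE2D3 and COPS3 were called in 2, 3, 3, 6, 7, 10 and 11 of them, with adjusted p up to 0.169. CSNK2B itself reached a higher level in SU-DHL-1 than in KI-JK, by the values given above.

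More members differed between the lines than under any treatment. With the empty vector, 32 of 36 members differed between KI-JK and SU-DHL-1, 11 higher and 21 lower in KI-JK, 88.9% beside 78.8% of 14786 genes (40.1% higher, 38.7% lower), and the median member was -0.28 beside 0.014 over all genes. The line, its culture and its separately deposited libraries cannot be told apart, and these empty vector libraries are those used in the vector comparisons. CRBN had 19.5, 18.6 and 21.9 CPM in KI-JK against 40.6, 36.2 and 37.6 CPM in SU-DHL-1, with no overlap and a log2 difference of -0.92 ± 0.07 (edgeR adjusted p = 4.02e-13). GLUL, its substrate, had 54.5, 50.8 and 54.9 CPM in KI-JK against 250, 259 and 241 CPM in SU-DHL-1, the largest difference of the set at -2.21 ± 0.04 (edgeR adjusted p = 6.95e-28). NAE1 had 91.9, 93.5 and 93.1 CPM in KI-JK against 283, 286 and 272 CPM in SU-DHL-1 (-1.58 ± 0.04, edgeR adjusted p = 2.21e-25), while UBA3, the other subunit of that enzyme, differed by 0.20. COPS3 had 62.7, 55.9 and 60.1 CPM in KI-JK against 180, 173 and 170 CPM in SU-DHL-1, and RNF7 had 46.5, 42.4 and 44.0 CPM against 107, 108 and 104 CPM. Both were far apart between the lines, by -1.53 ± 0.05 and -1.25 ± 0.05 (edgeR adjusted p = 2.08e-23 and 1.95e-20).

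Among the conjugating enzymes UBE2M was higher and UBE2D1 lower in KI-JK. UBE2M had 153, 156 and 150 CPM in KI-JK against 78.4, 72.3 and 74.4 CPM in SU-DHL-1 (1.04 ± 0.04, edgeR adjusted p = 1.2e-19). UBE2D1 had 21.8, 21.8 and 20.2 CPM in KI-JK against 45.1, 44.9 and 43.4 CPM in SU-DHL-1 (-1.05 ± 0.06, edgeR adjusted p = 8.24e-16). The DCUN1D co-ligases were also split: DCUN1D3 had 34.9, 31.5 and 33.6 CPM in KI-JK against 12, 11.8 and 10.9 CPM in SU-DHL-1 (1.54 ± 0.08, edgeR adjusted p = 1.36e-17), and DCUN1D5 had 53.1, 50.9 and 51.1 CPM against 112, 103 and 111 CPM (-1.06 ± 0.05, edgeR adjusted p = 1.02e-18). DCUN1D1 had 52.4, 53.2 and 54.0 CPM in KI-JK against 33.1, 30.8 and 30.8 CPM in SU-DHL-1 (0.76 ± 0.06, edgeR adjusted p = 1.73e-13). SENP8 was low in both, with 2.05, 2.17 and 1.36 CPM in KI-JK against 0.831, 0.753 and 0.581 CPM in SU-DHL-1 (1.36 ± 0.33, edgeR adjusted p = 0.000433). DDA1 was called in 4 of the 6 fits that left out 1 library, being lost without replicate 1 of either line (adjusted p up to 0.0668), and the calls of the other members shown here held in all 6. GPS1, USP15, AMBRA1 and DCUN1D4 were not called between the lines.

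Members not given by library had the following log2 ranges over the comparisons in which they were tested. CUL4A, a scaffold, ranged between -0.11 and 0.42, UBE2D2 between -0.40 and 0.24, DCUN1D2 between -0.03 and 0.63, COPS7B between -0.78 and 0.44 and USP15 between -0.31 and 0.34. DCUN1D4, between -0.32 and 0.30, and the untested CAND2 were the 2 genes of 37 called in none of the 15 comparisons.

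Other genes of the same degradation system were counted from lists chosen by function. In no-doxycycline RNA, 1 of 33 proteasome genes rose and 16 fell in regrown cells, beside 22.6% and 21.1% of all genes, with a median of -0.24. The no-doxycycline counts of these lists use the regrown libraries that stood apart by gene-span lean, and are given without the covariate. PSMD7 was at -1.16 in no-doxycycline RNA and PSMD2, which rose, was at 1.11 in PRO-seq. In the knockout RNA the counts were 3 and 8 of 33, beside 18.6% and 19.8%, and in PRO-seq 4 and 5, beside 14% and 16.2%, with PSMA6 at -0.84. Against the regrown no-doxycycline libraries 17 of 33 proteasome genes rose in regrown knockout cells and 2 fell, beside 16.3% and 15.7% of all genes. This comparison uses the libraries that stood apart by gene-span lean, and 0 genes were called in it with the covariate. Among those that rose were PSMA1 at 1.03, PSMB4 at 0.59 and PSMA3 at 0.57, with a median of 0.24. Of the other CUL4 receptors, 2 of 22 rose and 1 fell in PRO-seq, fewer than the shares over all genes given above, with DDB2 at 0.60, DCAF11 at -0.51 and DCAF1 at 0.41, and 7 and 3 of 21 in no-doxycycline RNA, beside 22.6% and 21.1%, with DCAF7 at 0.88, DCAF1 at 0.76 and PHIP at 0.59. Of 14 other cullin, adaptor and receptor genes 2 rose and 2 fell in PRO-seq, beside 14% and 16.2%, and VHL, the receptor of CUL2 ligases, was higher by 0.48 there and by 1.03 and 0.71 in no-doxycycline and knockout RNA. Neighbours were compared for members only, so whether VHL, PSMD2 or other listed genes moved with the genes around them was not tested. Among 5 natural CRBN client genes MEIS2, a homeobox factor, was called lower in PRO-seq (-2.05), in both RNA comparisons (-0.92 in the knockout) and in digital gene expression under DMSO (-2.06). BSG (-0.30) and SLC16A3 (-0.27) were also called lower in knockout RNA, beside 19.8% of all genes. In PRO-seq, no-doxycycline RNA and digital gene expression under DMSO the other clients were not called. The shares of all genes called lower there were 16.2%, 21.1% and 3.3%. With the CSNK2B vector 20 of 33 proteasome genes rose in KI-JK and 0 fell, beside 18.4% and 17.3% of all genes, led by PSMC4 at 0.36, ADRM1 at 0.36 and PSMD1 at 0.26, while 5 rose and 1 fell in SU-DHL-1, beside 3.39% and 3.34%. Between the lines 4 of 33 proteasome genes were higher and 28 lower in KI-JK, beside 40.1% and 38.7%, with a median of -0.69 and PSMC4 and PSMD8 each at -1.61.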

How the data were processed

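Engaged polymerase (PRO-seq), 3' tags (digital gene expression, DGE) and RNA (RNA-seq) were measured in 42 libraries. The authors deposited raw counts per gene in 5 tables. Per the submitters' processing notes, PRO-seq used cutadapt 1.14, Bowtie 1.2.2 and featureCounts 1.6.2 on hg38, RNA-seq STAR 2.6.1d, DESeq2 1.20.0 and edgeR 3.24.3 on hg38, and DGE Bowtie2 2.2.3 on hg19; the RNA-seq counting tool and strand and any DGE molecular identifiers are not given in the sources used here. Some gene names had become dates. The 27 in RNA-seq were replaced by the symbol joined to the Ensembl identifier where it matched, and the 17 in DGE were kept as dates. Of 17792 PRO-seq identifiers 17711 matched a symbol.

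From these counts, edgeR 4.0.16 in R 4.3.3 filtered low genes (filterByExpr), scaled by TMM and fitted quasi-likelihood models on the groups compared, or on all 4 groups for the 3 interaction terms. Standard errors are the absolute log2 change over the root of F. CPM are TMM-scaled within 1 assay's table. Alternatives were DESeq2 1.42.0, other scalings and filters, all groups in 1 fit, a replicate block, subtraction of the neighbours' median, leaving out each library and, chosen after seeing the data, a gene-span covariate; its slope was fitted per library over genes of at least 10 mean CPM and RefSeq gene spans. Same-numbered regrown libraries came from 1 pool, in the ZFP91 RNA-seq and in DGE. Their deviation correlations were -0.0133, 0.0145 and 0.2941 between knockout and no-doxycycline. Between lenalidomide and DMSO they were -0.0818, 0.1289 and 0.0609. The block therefore pairs by design in the regrown knockout and regrown lenalidomide responses, and elsewhere only a number is shared. The main fits did not use this pairing. The fitting script was tested on simulated data. The smallest chi-square per degree of freedom between replicates was 1.36, so no library's counts were a copy of another's. This value cannot tell repeated sequencing of the same material from separate samples. Named genes were CRBN in every comparison and members called in any; values per library were given for CRBN, for members called in the same direction in at least 2 of the 5 regrown against parental comparisons or by a log2 change of at least 1, and at most 3 genes for each other list. Members and lists were chosen with earlier results of these data known. Promoter sequences are from RefSeq (GRCh38.p14).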

Additional observations from a re-analysis of the deposited data

Results flagged for a closer look

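A term for the difference between responses was past the threshold for 5 members in the ZFP91 RNA-seq and 14 in the vector RNA-seq. The knockout response was higher in regrown than in parental cells for RBX1 (1.19), UBA3 (0.71) and UBE2D1 (0.60), and lower for DDB1 (-0.51) and COPS6 (-0.36), on the log2 scale. All 5 rest in part on the regrown no-doxycycline libraries, and with the gene-span covariate 0 of these 5 were called (adjusted p between 0.121 and 0.373), while UBE2M was (-0.64, edgeR adjusted p = 0.0233).

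The response to the CSNK2B vector was more positive in KI-JK than in SU-DHL-1 for UBE2F (0.68), GLUL (0.54), CDC34 (0.31), USP15 (0.27), COPS2 (0.26), COPS3 (0.25), CUL4A (0.25), DCUN1D5 (0.25), UBE2D1 (0.24), UBE2G1 (0.24), RBX1 (0.20), CAND1 (0.19), UBE2D3 (0.18) and DDB1 (0.15). CSNK2B RNA was raised to different levels in KI-JK and SU-DHL-1, and its part in these differences was not tested.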

How the results depend on the processing

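Over CRBN in every comparison and each member in the comparisons that called it, 1651 tested values under an alternative kept direction and side of the threshold, 273 kept direction but were no longer called, 2 (CRBN in PRO-seq with library-size scaling and in no-doxycycline RNA without regrown replicate 3) became called and 9 changed sign. Members not called in a comparison are outside these counts, and the cause was not tested. DGE, at 41571 to 395827 counts a library, gave the least precise values.

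With the neighbours' median subtracted, values changed sign for RNF7 in PRO-seq (0.19) and DGE under DMSO (0.072), COPS2 in no-doxycycline RNA (-0.037), and NAE1 (0.064), UBE2G1 (0.29) and CDC34 (0.13) in knockout RNA. With the gene-span covariate RBX1 was at 0.20 in no-doxycycline RNA, and in the regrown knockout response CRBN and RBX1 were each at -0.16, DCUN1D1 at 0.013, DCUN1D3 at 0.13 and COPS5 at -0.13. Leaving out 1 library, the uncalled value of CRBN ranged from -0.013 (without regrown replicate 1) to 0.48 in DGE under DMSO and from -0.023 to 0.11 in the KI-JK vector response, below 0 without empty vector replicate 2 or CSNK2B vector replicate 3.

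Counts of calls moved by over 1.5 times in these cases. The gene-span covariate gave 2159 genes and 3 members in PRO-seq, 2589 and 4 in no-doxycycline RNA, 23 members in knockout RNA, 1214 and 6 in the parental knockout response, 0 and 0 in the regrown one and 80 and 1 in their difference. The share of all genes is not set beside the 23 members. DESeq2 gave 240 genes and 0 members in DGE under DMSO, 82 genes under lenalidomide, 30 for the parental lenalidomide response, 198 for the parental knockout response and 2441 genes and 10 members for the difference of knockout responses. Without a filter there was 1 member in DGE under DMSO, 20 genes in the regrown lenalidomide response, 231 in the parental knockout response, 2333 genes and 8 members in the difference of knockout responses and 4 members in the difference of vector responses. A CPM filter gave 1 member in DGE under DMSO and 31 genes in the parental lenalidomide response. Fitting all 4 groups gave 0 members in DGE under DMSO, 244 genes under lenalidomide and 28 in the parental lenalidomide response. The replicate block gave 1 gene in the difference of lenalidomide responses, 2257 genes and 10 members in the difference of knockout responses and 2 members in the SU-DHL-1 vector response; the block changed single calls as given with each comparison, adding UBE2D1 in PRO-seq and NEDD8 in KI-JK and removing CDC34 in no-doxycycline RNA.

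Leaving out 1 library, the calls over all genes and over members ranged as follows. The regrown against parental ranges were 3245 to 5322 and 6 to 10 in PRO-seq, 4606 to 6401 and 9 to 14 in no-doxycycline RNA, 3731 to 6056 and 7 to 19 in knockout RNA, 222 to 512 and 0 to 2 in DGE under DMSO, 23 to 149 and 0 to 0 under lenalidomide. Those of the lenalidomide responses were 25 to 105 in the parental and 7 to 13 in the regrown cells, and 0 to 1 in their difference. Those of the knockout responses were 0 to 110 and 0 to 0 in parental cells, 2410 to 5519 and 11 to 19 in regrown cells and 0 to 3355 and 0 to 16 in their difference. Those of the vector were 582 to 902 and 1 to 3 in SU-DHL-1, 4246 to 4666 and 16 to 20 in KI-JK, 2303 to 2874 and 8 to 13 in their difference and 11306 to 11730 and 31 to 32 between the lines.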
